A study of Mus musculus with 6 samples.

Results

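Glycolysis is the chain of cytosolic reactions that breaks glucose down to pyruvate and, through lactate dehydrogenase, to lactate. Endothelial cells (ECs), which line blood vessels, are known for making much of their ATP this way, and the activator enzyme encoded by Pfkfb3 is known for its part in vessel sprouting. The liver holds a specialised, fenestrated endothelium in its sinusoids beside the ECs of its larger vessels. Described here are 10 genes that follow the pathway from entry to exit: the glucose transporter Slc2a1, the hexokinases Hk1 and Hk2, the phosphofructokinase regulator Pfkfb3, the phosphofructokinase Pfkl, and Aldoa, Gapdh, Pgk1, Eno1 and Ldha. They were chosen by name, and all 10 of these symbols have a row among the 24421 gene symbols of the count data and a row in the FPKM data.

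The animals were C57BL/6J mice of wild-type (WT) genotype, and the methods state that they were female. From each liver, 50000 ECs were sorted by flow cytometry for surface CD31 and against CD45 (CD31+CD45-), and their RNA was sequenced. The 3 young samples came from mice 10 weeks old, and the 3 aged samples from mice 127, 131 and 136 weeks old. The labels number the young samples and give each aged sample an age of its own. The p-values measure the spread between these 6 samples. The comparison of aged with young ECs asks how the RNA of liver ECs differs with age.

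Total counts ran from 23001556 to 31651817 per sample, so that 3 counts correspond to 0.0948 to 0.130 CPM, a count scaled to library size. CPM is used here with TMM scaling between libraries, and FPKM, which also divides by gene length, is used wherever levels of different genes are compared. The endothelial marker Pecam1, which encodes CD31, had CPM between 1366 and 1635 in the 6 samples, and 8 of 8 endothelial markers were detected. Of these 8, 5 had a negative log2 fold change, and the summed CPM of all 8 was 11660 to 12520 in young and 7786 to 9794 in aged ECs. Most of the fall came from Stab2, a marker of sinusoidal ECs, and from Kdr. Mean CPM was 3041 in young and 935 in aged ECs for Stab2, and 3507 and 2237 for Kdr. Pecam1, Emcn and Lyve1 had a positive log2 fold change. Of 12 hepatocyte markers, 12 had a negative log2 fold change, with a sum of 139 to 190 CPM in young and 80.6 to 96.5 CPM in aged ECs. Values of single samples are listed below as young replicates 1 to 3, then the aged samples in order of age (127, 131 and 136 weeks), and ± gives the SD over the 3 mice of an age. Ptprc, the gene of CD45, was at 1.56, 1.17 and 1.70 CPM in the young and 7.57, 1.28 and 25.6 CPM in the aged samples. Young replicate 3 and the 127-week sample carried few counts on the symbols Lars2 and Rn45s. The summed counts of both symbols were 1.29% and 0.960% of the total, against 4.68% to 5.53% in the other 4 libraries. Differences between the ages are therefore also given within both kinds of library for the glycolysis genes other than Eno1. They are differences of mean log2(CPM + 0.5).

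A gene is said here to pass the test when its Benjamini-Hochberg adjusted p over all 14612 tested genes was below 0.05 in edgeR's quasi-likelihood test. No gene passed, which makes the percentage of genes called 0 in either direction, and the smallest adjusted p was 0.0735. The counts at an unadjusted p below 0.05 are given as a description. They were 1216 genes higher in aged ECs, which is 8.32% of the tested genes, and 631 lower, which is 4.32%. The higher genes were 65.8% of these calls, and 77.2% when only library totals were used for scaling. DESeq2, run as an alternative, called 480 genes higher and 150 lower at an adjusted p below 0.05.

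Of the 10 glycolysis genes, 0 passed the test in edgeR, and 3 had an unadjusted p below 0.05 in the direction of aged ECs. These were Slc2a1, Pfkfb3 and Aldoa, 30% of the list against the 8.32% of all tested genes. None of the 10 had such a p in the other direction. The median log2 fold change of the list was 0.21, against 0.0098 over all tested genes, and 9 of the 10 had a positive value, against 51.1% of tested genes. Both include the count row of Eno1, which cannot carry the level of that gene, as described below. In the FPKM data, 10 of 10 were positive, again 3 had an unadjusted p below 0.05 in limma, against 6.63% of 13658 tested genes, and the median was 0.20. For 3 genes, Slc2a1, Aldoa and Pgk1, all 3 aged samples lay above all 3 young samples, where 9.62% of all tested genes did so, and for 0 of the 10 did they lie below, against 8.33%. The summed CPM of the 10 genes was 1955, 2070 and 2065 in the young samples, then 2550, 2491 and 2579 in the aged samples. The ages did not overlap on this sum, most of which comes from Aldoa, Ldha and Gapdh.

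**Figure D1:**
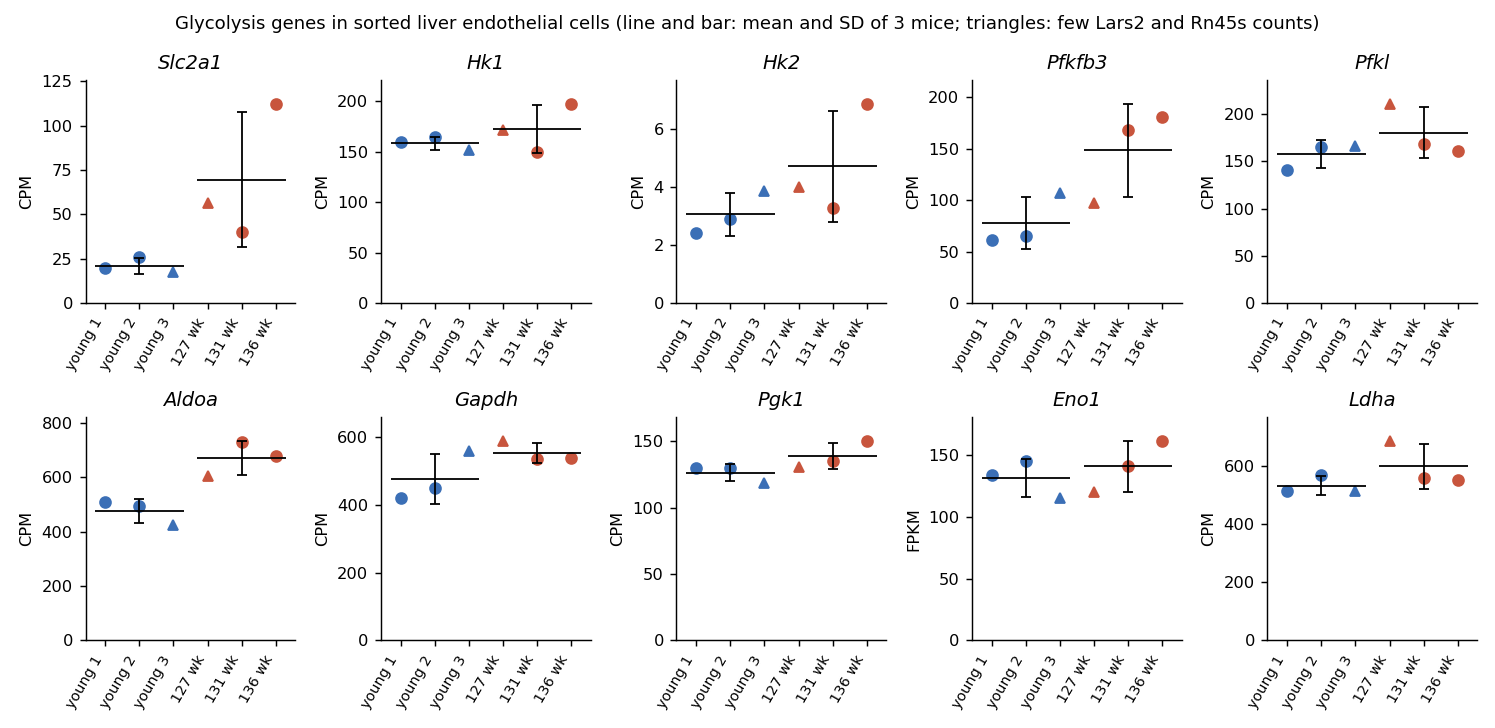
Levels of the 10 genes in each of the 6 samples, in CPM except for Eno1, which is in FPKM, with young samples in blue and aged samples in red. The line and bar give the mean and SD of 3 mice, and triangles mark both libraries with few Lars2 and Rn45s counts; Slc2a1 reaches 112 CPM in the 136-week sample against 26.0 in the highest young sample.

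The promoters of several glycolysis genes are textbook sites for hypoxia-inducible factors, whose binding core is ACGTG or GCGTG. RefSeq start sites gave 17 windows of 250 bases upstream for the 10 genes, each of which matched the mm9 genome at 1 place. At least 1 of these 5-base letters, on either strand, stood in 15 of the 17 windows, against 38.6% of 32851 windows of all genes. Each of the 10 genes had a match in at least 1 window. The share of all genes with such a window was not computed, and a gene with more windows has more chances of a match. Windows of 1 gene overlap in places, and such short letters also match by base composition, so a match is a description of the sequence and not a bound site. The stretches with the matches are shown for Slc2a1, Pfkfb3 and Aldoa, which had an unadjusted p below 0.05, and for Ldha, which had the most matches of any of the 17 windows, with the matched letters in capitals and each read 5′ to 3′ along the gene's strand. They lie at chr4:118781259-118781328 on the + strand for Slc2a1, chr2:11423755-11423869 on the - strand for Pfkfb3, chr7:133942880-133942924 on the - strand for Aldoa and chr7:54100999-54101154 on the + strand for Ldha (mm9).
Slc2a1: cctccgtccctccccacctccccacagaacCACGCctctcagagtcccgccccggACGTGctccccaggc
Pfkfb3: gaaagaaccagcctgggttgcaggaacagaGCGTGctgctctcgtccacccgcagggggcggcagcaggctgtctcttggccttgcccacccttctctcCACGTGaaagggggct
Aldoa: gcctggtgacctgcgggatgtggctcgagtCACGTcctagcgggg
Ldha: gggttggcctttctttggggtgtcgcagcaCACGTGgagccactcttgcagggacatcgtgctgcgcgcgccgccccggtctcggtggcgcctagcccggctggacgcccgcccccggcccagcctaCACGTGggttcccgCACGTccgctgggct
The letters CACGTG hold ACGTG on both strands at overlapping positions and count as 2 matches. By this count the stretch of Slc2a1 held 2 matches, that of Pfkfb3 held 3, that of Aldoa 1 and that of Ldha 5. Each stretch lies upstream of a RefSeq start. Those of Aldoa and Ldha lie inside the gene spans given below, and 13 bases of the Slc2a1 stretch fall in annotated exons.

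Slc2a1 (chromosome 4, 118781316 to 118809935 of mm9) encodes GLUT1, the glucose transporter through which most ECs take up glucose. Its CPM was 19.5, 26.0 and 17.2 in the young samples, then 56.3, 39.8 and 112 in the aged samples. The aged samples did not overlap the young ones and were themselves spread widely, with the 136-week sample highest. Young mice averaged 20.9 ± 4.55 CPM and aged mice 69.5 ± 38.0 CPM (SD, n = 3), which gave a log2 fold change of 1.73 with a standard error of 0.38 (adjusted p = 0.232). The difference was 1.55 among libraries with many Lars2 and Rn45s counts and 1.68 among those with few. Without the 136-week sample the log2 fold change was 1.20 (adjusted p = 0.334).

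Slc2a1 was the only 1 of the 10 genes to pass under any of the 19 alternatives, in DESeq2, where its log2 fold change was also 1.73 (DESeq2 adjusted p = 0.0016). A fit with the mean of the pan-leukocyte markers as a covariate gave 1.04 (edgeR adjusted p = 0.425). Leukocyte markers were high in the same 136-week sample. Of 8 pan-leukocyte, 6 T and NK cell and 7 macrophage and Kupffer cell markers, 7, 6 and 6 had a positive log2 fold change, and none was at 0 in all young samples. The summed CPM of the pan-leukocyte markers was 423 to 450 in young and 306 to 541 in aged ECs. Most of the young sum came from Arhgdib, at 321 to 346 CPM, which was at 195, 251 and 188 CPM in the aged samples. At an unadjusted p below 0.05 in edgeR, 5 of the 8 were higher (62.5%, against 8.32% of all tested genes). Arhgdib was the 1 lower (12.5%, against 4.32%). The summed CPM of 6 T and NK cell markers was 5.19, 0.311 and 20.7 in the aged samples, in order of age, against 0.347 to 0.558 in young ECs. That of 7 macrophage and Kupffer cell markers was 188, 30.7 and 461 against 44.4 to 87.5. In the 131-week sample the T and NK cell sum, the macrophage sum and Ptprc were within or below the young range, and Slc2a1 was at 39.8 CPM. In the 127- and 136-week samples these 3 values were above it, with Slc2a1 at 56.3 and 112 CPM. In bulk RNA, fewer cells of a type and less RNA per cell cannot be told apart.

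The neuronal-type glucose transporter Slc2a3 (GLUT3), from the list of other glycolysis genes, had the smallest p of that list. Its CPM was 4.99, 4.33 and 4.48 in the young samples, then 12.7, 18.9 and 17.3 in the aged samples, so that the ages did not overlap and the 131-week sample was highest. The log2 fold change was 1.83 with a standard error of 0.23 (adjusted p = 0.137), and it passed in DESeq2 (DESeq2 adjusted p = 9.53e-09) and narrowly in limma-voom (limma adjusted p = 0.0473). With the leukocyte covariate it was 1.84. Of the summed FPKM of Slc2a1, Slc2a3 and the hepatocyte-type transporter Slc2a2, Slc2a1 held 82.9% ± 3.49 at the young age and 82.5% ± 9.13 at the aged one (SD, n = 3 per age; two-sided exact permutation test, p = 0.9). The sum itself was 10.3 FPKM in young and 33.3 FPKM in aged ECs, while the mean share of Slc2a1 differed by -0.35 percentage points.

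Hexokinases trap glucose in the cell by phosphorylating it. Hk1 (chromosome 10, 61731603 to 61842656), the housekeeping form, had CPM of 159, 164 and 152 in the young samples, then 171, 150 and 197 in the aged samples. The lowest and the highest of the 6 values were both from aged mice, and the log2 fold change was 0.13 with a standard error of 0.15 (adjusted p = 0.789). Among libraries with many Lars2 and Rn45s counts the difference was 0.091, and among those with few it was 0.17. Hk2 (chromosome 6, 82675019 to 82724448), the inducible form, was the least abundant of the 10 genes. It had CPM of 2.42, 2.89 and 3.85 in young and 3.99, 3.27 and 6.86 in aged samples, a log2 fold change of 0.62 with a standard error of 0.39 (adjusted p = 0.567). Its ages overlapped, and the 136-week sample stood above the rest. For Hk2 the difference was 0.74 among libraries with many Lars2 and Rn45s counts and 0.046 among those with few. Of the summed FPKM of Hk1, Hk2, Hk3 and Hkdc1, Hk1 supplied 96.2% ± 0.603 at the young age and 95.2% ± 1.55 at the aged one, and Hk2 supplied 1.38% ± 0.365 and 1.89% ± 0.471 (SD, n = 3 per age). The share of Hk1 gave p = 0.3 in the two-sided exact permutation test.

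Phosphofructokinase makes fructose 1,6-bisphosphate and is the committed step of glycolysis. Pfkfb3 makes fructose 2,6-bisphosphate, the strongest activator of that enzyme. Pfkfb3 (chromosome 2, 11393057 to 11423728) had CPM of 61.3, 65.4 and 107 in the young samples, then 96.8, 169 and 180 in the aged samples. The ages overlapped, because young replicate 3 lay above the 127-week sample. Young mice averaged 77.9 ± 25.3 CPM and aged mice 149 ± 45.3 CPM (SD, n = 3), which gave a log2 fold change of 0.93 with a standard error of 0.30 (adjusted p = 0.315). The overlapping pair is the one with few Lars2 and Rn45s counts, within which the difference was -0.14, while it was 1.46 within the other 4 libraries. With 1 aged and 1 young library in the first of these sets, the opposite sign has no replicate check, and whether the difference depends on the kind of library was not tested. The unadjusted p of Pfkfb3 was at or above 0.05 in 4 of the 6 fits that left out 1 library, those without young replicate 1, young replicate 2, the 131-week or the 136-week sample. Over the 6 fits its log2 fold change ranged from 0.77 without the 136-week sample to 1.23 without young replicate 3. The unadjusted p was also just above 0.05 with the leukocyte covariate, where the log2 fold change was 0.87.

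Pfkl (chromosome 10, 77449692 to 77472828), the liver-type phosphofructokinase subunit, had CPM of 141, 166 and 167 in the young samples, then 211, 168 and 161 in the aged samples. The 127-week sample was high and the other 5 lay close together, with a log2 fold change of 0.19 and a standard error of 0.16 (adjusted p = 0.685). Among libraries with many Lars2 and Rn45s counts the difference was 0.11, and among those with few it was 0.34. Despite its name, Pfkl was the main subunit of these sorted ECs and held 59.4% ± 4.51 of phosphofructokinase FPKM at the young age and 60.8% ± 3.86 at the aged one (SD, n = 3 per age; two-sided exact permutation test, p = 0.7). The platelet-type Pfkp held 29.9% and 27.7%, and the muscle-type Pfkm the rest. Pfkfb3 held 79.3% ± 3.74 of the FPKM of the 4 Pfkfb genes at the young age and 86.5% ± 5.17 at the aged one (SD, n = 3 per age), a difference of 7.19 percentage points (two-sided exact permutation test, p = 0.2).

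Aldolase splits fructose 1,6-bisphosphate into triose phosphates. Aldoa (chromosome 7, 133938748 to 133944265), the form of muscle and most other cells, had CPM of 507, 494 and 424 in the young samples, then 604, 729 and 677 in the aged samples. All 3 aged samples lay above all 3 young samples, and the highest was the 131-week sample. Young mice averaged 475 ± 44.4 CPM and aged mice 670 ± 62.8 CPM (SD, n = 3), which gave a log2 fold change of 0.50 with a standard error of 0.16 (adjusted p = 0.308). It was 0.49 among libraries with many Lars2 and Rn45s counts and 0.51 among those with few, and 0.52 with the leukocyte covariate. The unadjusted p was above 0.05 in 1 of the 6 fits that left out 1 library, the one without young replicate 3, where the log2 fold change was 0.42.

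**Figure D2:**
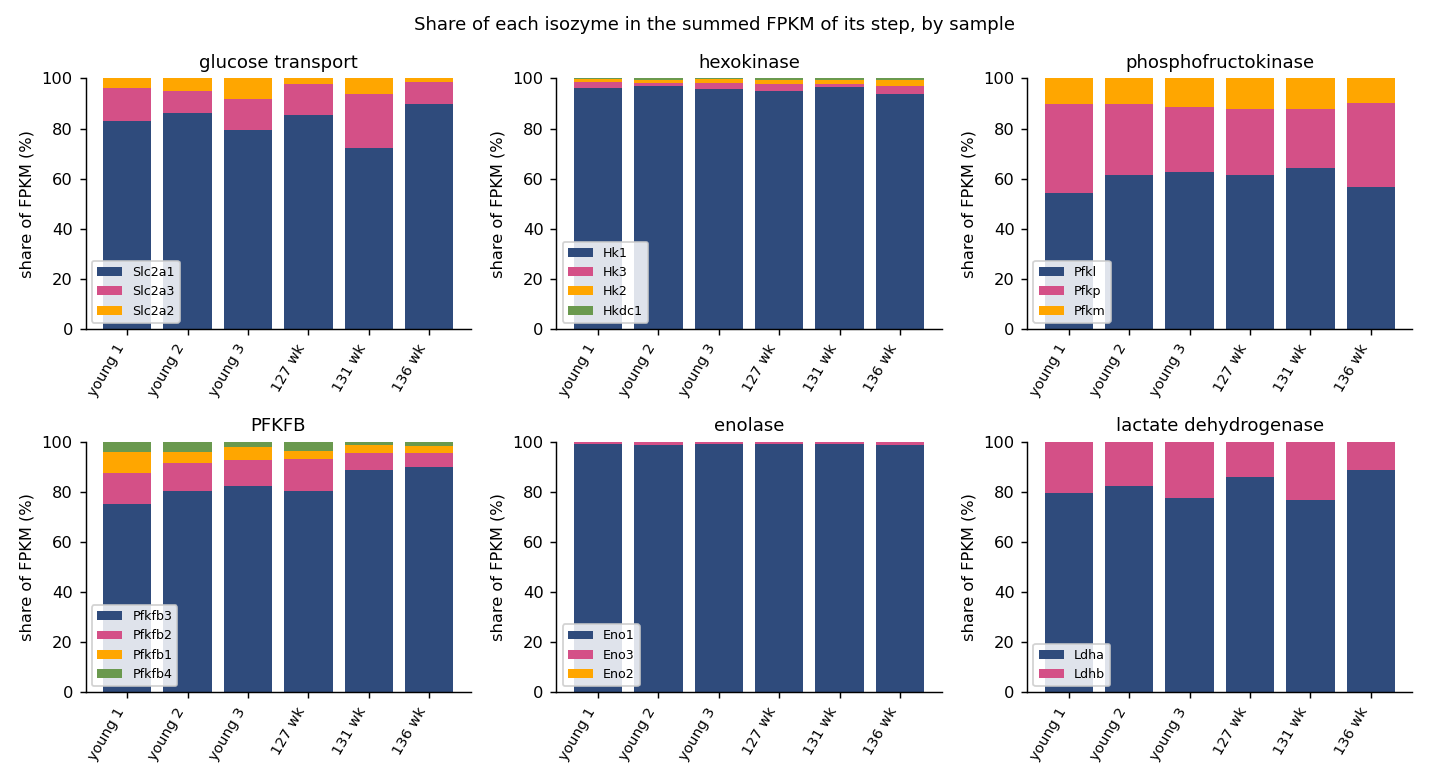
Share of each isozyme in the summed FPKM of its enzyme step, in percent, for each of the 6 samples, with 1 panel per step and stacked bars that reach 100%. One isozyme leads every step in every sample, from 54.3% for Pfkl in young replicate 1 to over 98% for Eno1, and the share of Pfkfb3 runs from 75.2% to 82.5% in young and from 80.5% to 90.1% in aged samples.

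Gapdh and Pgk1 carry out the first oxidation and the first ATP-yielding step. Gapdh (chromosome 6, 125111871 to 125116485) had CPM of 419, 448 and 559 in the young samples, then 588, 534 and 538 in the aged samples. The ages overlapped, since young replicate 3 lay above the 131- and 136-week samples, and the log2 fold change was 0.22 with a standard error of 0.17 (adjusted p = 0.650). Young replicate 3 has few Lars2 and Rn45s counts, and within each kind of library the aged samples lay above the young. The difference was 0.31 among libraries with many such counts and 0.073 among those with few. Pgk1 (chromosome X, 103382439 to 103399038) had CPM of 130.1, 129.6 and 119 in young and 131, 135 and 150.1 in aged samples. Its ages lay just apart, by less than 1 CPM, and its log2 fold change was 0.14 with a standard error of 0.13 (adjusted p = 0.728), so the lack of overlap went with a small difference. For Pgk1 the difference was 0.13 among libraries with many Lars2 and Rn45s counts and 0.14 among those with few.

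Reads of Gapdh and Pgk1 cannot be placed by sequence alone over most of their length. Of the stretches of 75 bases, the read length, in 1 annotated transcript, 85.4% for Gapdh and 91.4% for Pgk1 occur without mismatch elsewhere in mm9, at 120 and 4 other places. The share was 65.4% for Eno1, 7.15% for Ldha, 1.49% for Aldoa and 0% for Slc2a1, Hk1, Hk2, Pfkfb3 and Pfkl. How the authors' counting treated reads with several places is not given in the sources used here, so the levels of Gapdh, Pgk1 and Eno1 are uncertain.

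Eno1 (chromosome 4, 149610830 to 149622988), the enolase of most tissues, is the gene for which the deposited data differ. Its row of the count data held 74, 71 and 0 counts in the young samples, then 1, 62 and 84 counts in the aged samples. Its FPKM in the same samples were 134, 145, 115, 120, 141 and 162, among the higher levels of the pathway. The ratio of mean CPM to mean FPKM was 0.0145 for Eno1 and between 1.20 and 5.52 for the other 9 genes, so the count row cannot carry the level of Eno1. The row of the related symbol Eno1b held 3 to 7 counts per sample and does not make up the difference. The counts of 0 and 1 fell in both libraries with few Lars2 and Rn45s counts, and how the counting assigned Eno1 reads was not tested. By FPKM the ages overlapped, with a log2 fold change of 0.096 on log2(FPKM + 0.1) and a standard error of 0.17 (limma adjusted p = 0.861). Eno1 held 99.1% ± 0.145 of enolase FPKM at the young age and 99.0% ± 0.281 at the aged one (SD, n = 3 per age), with Eno2 and Eno3, the neuronal and muscle forms, at or below 1.27%.

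Ldha (chromosome 7, 54096845 to 54110997) converts pyruvate to lactate and is the exit of the pathway described here. Its CPM was 514, 571 and 516 in the young samples, then 688, 560 and 552 in the aged samples. The 127-week sample was high, and the other 5 samples lay between 514 and 571. The log2 fold change was 0.17 with a standard error of 0.16 (adjusted p = 0.730). Among libraries with many Lars2 and Rn45s counts the difference was 0.037, and among those with few it was 0.41. The heart-type subunit Ldhb varied more between aged samples, at 86.6, 129.5 and 54.5 CPM, and the share of Ldha in lactate dehydrogenase FPKM was 79.7% ± 2.44 at the young age and 83.8% ± 6.18 at the aged one (SD, n = 3 per age; two-sided exact permutation test, p = 0.4). Shares were compared in this way for 6 enzyme steps, and the p adjusted over the 6 ranged from 0.8 to 0.9.

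The 10 genes spanned a wide range of levels. Mean FPKM over the 6 samples was 430 for Gapdh, 429 for Aldoa, 385 for Ldha, 136 for Eno1, 79.2 for Pgk1, 46.5 for Pfkl, 40.4 for Hk1, 22.6 for Pfkfb3, 18.4 for Slc2a1 and 0.703 for Hk2. Neighbours in this order overlapped between samples for Gapdh and Aldoa, Aldoa and Ldha, Pfkl and Hk1, and Pfkfb3 and Slc2a1, so those orders are not set beyond their spread. The genes with the highest log2 fold changes among the 10, Slc2a1, Pfkfb3 and Hk2, were the 3 lowest in this order, while Aldoa, next by fold change, stood near the top. Of the 6 samples, the 136-week sample was the highest for 6 of the 10 genes, the 127-week sample for 3 and the 131-week sample for 1. The lowest value was in young replicate 1 for 5 genes, in young replicate 3 for 4 and in the 131-week sample for 1.

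**Figure D3:**
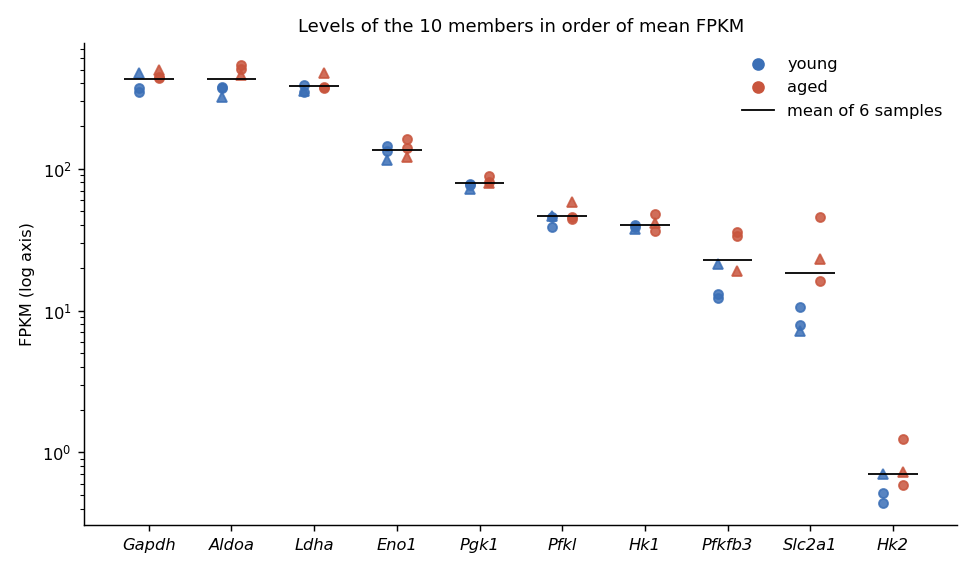
FPKM of the 10 genes in each sample on a log axis, in order of the mean over 6 samples (line), with young samples in blue, aged samples in red and triangles for both libraries with few Lars2 and Rn45s counts. The levels fall from a mean of 430 for Gapdh to 0.703 for Hk2, with Slc2a1 aged samples between 16.1 and 45.5 above young samples between 7.19 and 10.6.

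The enzymes and transporters outside these 10 form a list of 23 genes, of which 21 were tested and Eno2 and Pklr were too low. None passed the test, 1 (Slc2a3) was higher and 0 were lower at an unadjusted p below 0.05, and 20 had neither. The 1 higher gene is 4.76% of the 21, against 8.32% of all tested genes, and the 0 lower genes stand against 4.32%. Of the 21, 19 had a positive log2 fold change, against 51.1% of all tested genes, with a median of 0.24 against 0.0098. At the steps between the 10 genes, Gpi1, which makes fructose 6-phosphate, had a log2 fold change of 0.16 (adjusted p = 0.720), the triose isomerase Tpi1 0.30 (adjusted p = 0.547), the mutase Pgam1 0.10 (adjusted p = 0.907) and the pyruvate kinase Pkm 0.053 (adjusted p = 0.936). Pkm was among the higher genes of the pathway, with CPM between 702 and 855, and its ages overlapped. The lactate exporter Slc16a3 (MCT4) had CPM of 7.70, 10.8 and 4.86 in young and 12.6, 9.30 and 23.6 in aged samples, a log2 fold change of 0.96 (adjusted p = 0.408), while that of the related Slc16a1 was 0.11 (adjusted p = 0.919).

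**Figure D4:**
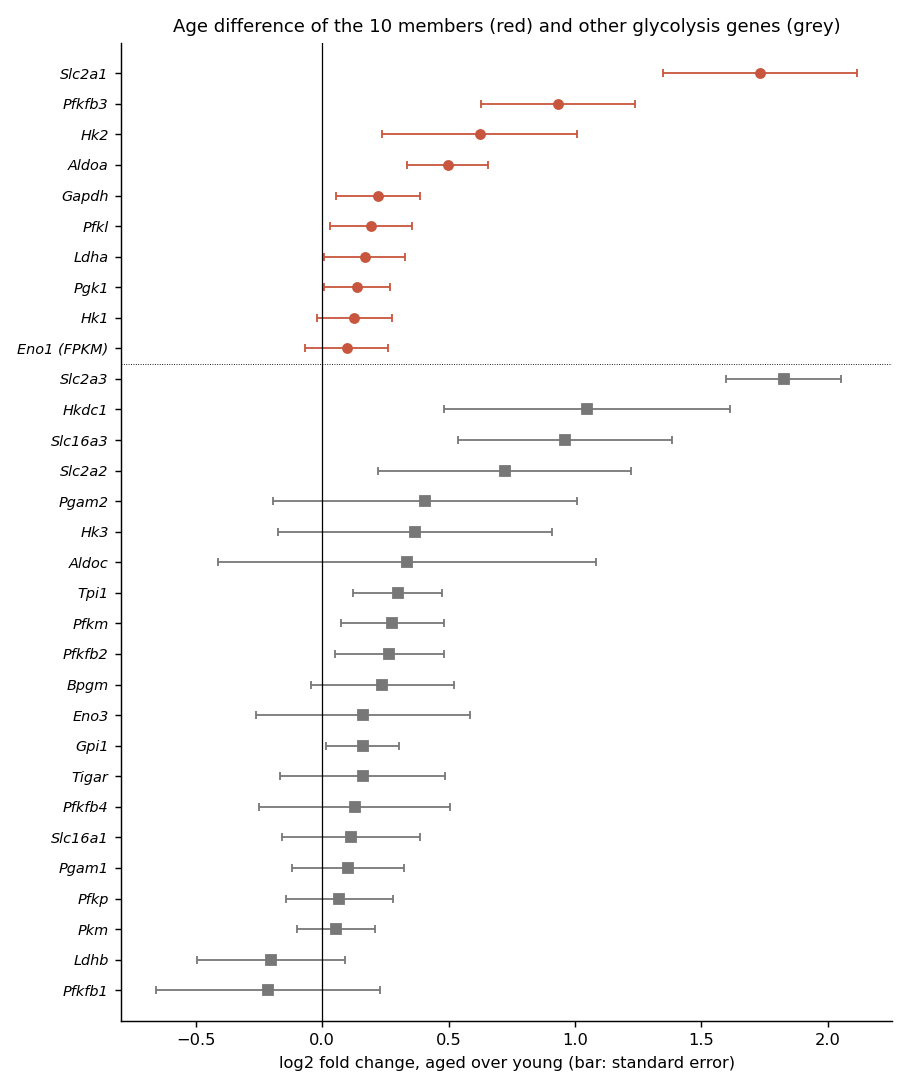
Log2 fold change of aged over young ECs with its standard error for the 10 genes (red circles, edgeR on counts, Eno1 from limma on FPKM) and for 21 other glycolysis genes (grey squares, edgeR). Slc2a1 at 1.73 and Slc2a3 at 1.83 stand farthest to the right, and Pfkfb1 at -0.21 farthest to the left.

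Among 10 regulators of the pathway, 2 had an unadjusted p below 0.05, both higher in aged ECs, and none passed. These 2 are 20% of the list, against the 8.32% of all tested genes that were higher at the same unadjusted p. Myc, a transcription factor with glycolytic target genes, had CPM of 39.1, 51.0 and 26.9 in the young samples, then 101, 94.8 and 372 in the aged samples, a log2 fold change of 2.28 (adjusted p = 0.243). It was 1.33 without the 136-week sample (adjusted p = 0.312) and 1.23 with the leukocyte covariate (adjusted p = 0.558). Egln3, an oxygen-sensing prolyl hydroxylase that is itself induced by hypoxia-inducible factor, had a log2 fold change of 1.06 (adjusted p = 0.264). Both kept all aged samples above all young samples, where 9.62% of all tested genes did so. Both passed in DESeq2, with DESeq2 adjusted p of 0.00154 for Myc and 0.0467 for Egln3. The hypoxia-inducible factor genes themselves, Hif1a and Epas1, had log2 fold changes of 0.37 (adjusted p = 0.470) and 0.016 (adjusted p = 0.985). Klf2, which is known to repress Pfkfb3 in ECs, was at -0.46 (adjusted p = 0.650), and Txnip, which limits glucose uptake, at -0.54 (adjusted p = 0.478), with all 3 aged samples below all 3 young samples for Txnip.

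Of 19 target genes of hypoxia-inducible factor outside glycolysis, Egln3 included, 3 were higher and 2 lower at an unadjusted p below 0.05, and 14 had neither. The higher genes are 15.8% of the list, against 8.32% of all tested genes, and the lower genes 10.5%, against 4.32%. The median log2 fold change was 0.11, against 0.0098 over all tested genes. The growth factor gene Vegfa had CPM of 16.8, 18.3 and 20.003 in the young samples, then 43.0, 46.1 and 88.0 in the aged samples, a log2 fold change of 1.68 (adjusted p = 0.191), and the ages lay well apart. The lipase inhibitor Angptl4 was at 1.22 (adjusted p = 0.358), with the highest value in the 136-week sample. Without that sample it was 0.50 (adjusted p = 0.732), and with the leukocyte covariate 0.29 (adjusted p = 1). The collagen hydroxylase P4ha1 and the lipid droplet gene Plin2 were lower, at -0.49 (adjusted p = 0.332) and -0.33 (adjusted p = 0.393). Classic targets such as Bnip3 at 0.11, Adm at -0.26 and Pdk1 at 0.045 had unadjusted p above 0.05.

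Gapdh served as reference gene in the study's quantitative PCR, which was run on ECs of mice of other ages than those sequenced. The PCR compared ECs sorted for and against surface CD157, while CD31+CD45- ECs were sequenced without that division. The ratios to Gapdh below are therefore not the quantities of the PCR. The spread given here is that of the sequenced samples and not of the PCR samples. The SD of its log2 CPM over the 6 samples was 0.19, rank 4 of 13 commonly used reference genes from the steadiest. Rplp0 at 0.13, Sdha at 0.14 and Hprt at 0.18 varied less. Actb stood at the other end with an SD of 1.52: it had CPM between 3332 and 3710 in the 4 libraries with many Lars2 and Rn45s counts and of 450 and 464 in the pair with few, a ratio of 7.65 that was 7.52 in FPKM. Gapdh split the other way and by less, with a ratio of 0.845. Its CPM was 419 to 538 in those 4 libraries and 559 and 588 in the pair. The log2 CPM of Gapdh was on average 0.23 higher in aged ECs (two-sided exact permutation test, p = 0.3). Dividing by Gapdh took that amount off the log2 differences of the genes measured by PCR, which for Selp went from 1.37 to 1.14, for Sele from 2.64 to 2.41, for Cd74 from 2.66 to 2.43 and for H2-Aa from 2.43 to 2.199. The ages did not overlap for any of these 4 ratios (two-sided exact permutation test, p = 0.1 for each, the smallest possible, adjusted over 4 also 0.1). Before the division the aged samples lay above the young for all 4 as well, where 9.62% of all tested genes did so. The paper turned to these genes by PCR after its RNA-seq of the same libraries, so their separation here is no independent support.

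The PCR primers for Gapdh are shown because of its many copies, and are designed sequences read 5′ to 3′ and given with the study's methods.
Gapdh forward: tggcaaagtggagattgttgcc
Gapdh reverse: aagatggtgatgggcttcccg
Both lie in the coding sequence and enclose a product of 156 bases in each of 3 annotated transcripts. Both also match without mismatch, facing each other within 2000 bases, at 40 other places of mm9 on 18 of the 22 chromosomes searched, of which 37 give a product of the same length. Whether any genomic DNA was present in the PCR cannot be read from these data.

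**Figure D5:**
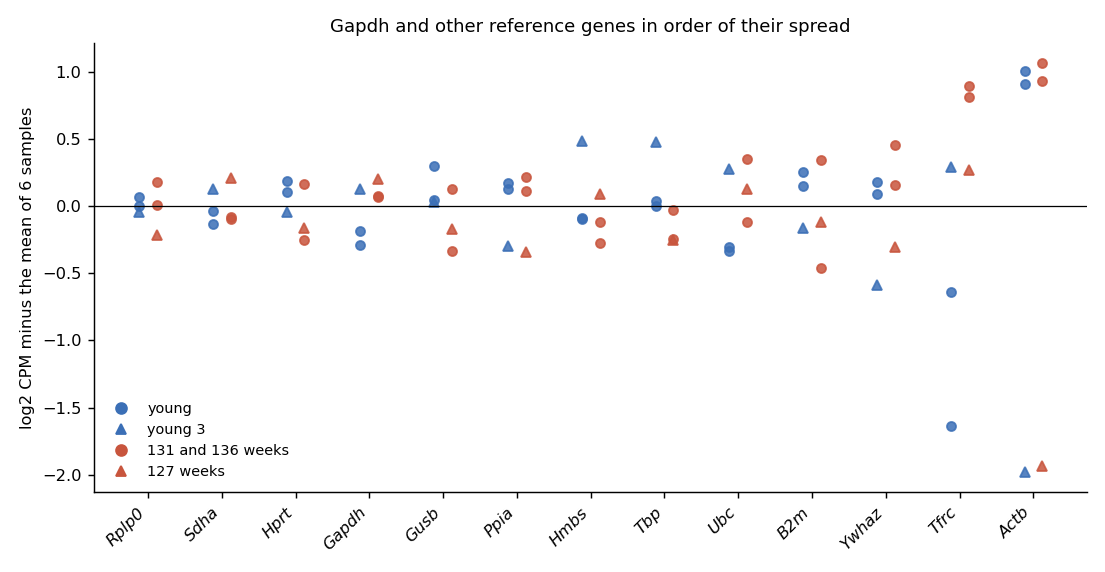
Log2 CPM of Gapdh and 12 other reference genes in each sample, minus the gene's mean over 6 samples, in order of the SD, with young samples in blue, aged samples in red and triangles for both libraries with few Lars2 and Rn45s counts. Gapdh is in rank 4, and Actb, in rank 13, falls into 2 levels that follow the kind of library and not the age.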

How the data were processed

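Base calling with CASAVA 1.8.2, mapping to mm9 with TopHat2 2.1.0 and FPKM values from Cuffnorm 2.2.1 are named in the submitters' processing notes. The authors deposited read counts per gene symbol, without normalization, for 24421 symbols, and deposited FPKM values for 24346 symbols. The counting program, its annotation and its use of strand are not given in the sources used here, so overlapping genes are uncertain. Counts and floors without molecular identifiers cover counting error only.

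For the count test, 14612 genes reached 0.5 CPM in 1 or more of the 6 samples. They were scaled by TMM, and aged and young were compared without covariates by edgeR's quasi-likelihood F test (edgeR 4.0.16, R 4.3.3) and adjusted by Benjamini-Hochberg. Dividing the log2 fold change by the root of F gave its standard error. Log2(FPKM + 0.1) of 13658 genes was tested with limma 3.58.1, and DESeq2 1.42.0 served as an alternative. For single values, two-sided exact permutation tests were run in SciPy 1.17.1.

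Positions and transcripts are those of GENCODE for mm9; RefSeq promoter windows (GRCm38.p6) were placed in mm9 by exact match. The 10 genes and all gene lists were chosen with earlier results of these data known. Named are the 10 genes, and from the other metabolic and regulator lists every gene with an unadjusted p below 0.05, the most abundant gene of each step and otherwise the gene with the smallest p. Other genes are named as comparisons after their values were seen. Marker lists are given by sums, with single markers named beside them after their values were seen. Alternatives covered scaling, filters, pseudocounts, limma-voom, terms for library kind and leukocyte markers, and each library left out. Leaving out both libraries with few Lars2 and Rn45s counts was added after the data were seen. Some genes of these pathways, and shares that need them, are not reported here and are left out of the lists.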

Additional observations from a re-analysis of the deposited data

How the results depend on the processing

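The log2 fold changes of 8 of the 10 glycolysis genes were positive under all 19 alternatives. The exceptions were Hk1, negative under 1, and the count row of Eno1. The number of genes passing, 0 in either direction in edgeR, was 480 higher and 150 lower in DESeq2, where 1 of the 10 genes, Slc2a1, passed. It was 13 higher and 2 lower in limma-voom, 6 and 10 with the leukocyte covariate, 3 and 1 without a filter, 1 and 1 with a term for the kind of library, 4 and 1 at an adjusted p below 0.1, and 1 higher in limma on FPKM with a pseudocount of 0.1 or 1 or without a filter. With 1 library left out, it ranged from 0 to 1 higher and was 0 lower, and 2 to 3 of the 10 genes had an unadjusted p below 0.05. The median log2 fold change of the 10 genes, 0.21, was 0.28 with library totals only (0.276) and in limma-voom (0.2754). Over all tested genes the median was 0.0751 with library totals only and 0.0108 in limma-voom, against 0.0098 in the main test. With 1 library left out, the median of the 10 genes was 0.23 to 0.37. It includes the count row of Eno1, whose log2 fold change ranged from -0.70 to 0.56 in these fits. The range therefore depends in part on a row that cannot carry the level of Eno1. At an unadjusted p below 0.05 stood 3 of the 10 without both libraries with few Lars2 and Rn45s counts, where the median was 0.22. All 3 were higher in aged ECs, and of all tested genes 911 of 14269 were higher at that p in this fit.

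With 1 library left out or CPM in place of FPKM, the difference in share, aged minus young, ranged from -3.96 to 4.78 percentage points for Slc2a1 and -1.25 to 3.40 for Pfkl. For Eno1, whose count row cannot carry its level, it was -0.24 to 0.034 with 1 library left out and -3.26 with CPM, so these 3 have no settled direction. Those of Hk1 (-1.84 to -0.29), Pfkfb3 (5.13 to 10.1) and Ldha (1.63 to 7.55) kept theirs. The causes of these changes were not tested. No paired analysis was possible because the ages share no replicate numbers in the labels. With 3 mice per age, single values cannot give an exact p below 0.1.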

Other observations

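Beside glycolysis, branches that draw on its intermediates were measured, and none of their genes passed the test in edgeR. In the pentose phosphate pathway, G6pdx, the entry enzyme that yields NADPH, had CPM of 38.0, 33.8 and 30.7 in the young, then 42.2, 50.6 and 53.7 in the aged samples in order of age, a log2 fold change of 0.52 (edgeR adjusted p = 0.289). It was the only 1 of 7 genes of that pathway with an unadjusted p below 0.05, which is 14.3%, against the 8.32% of all tested genes that were higher at that p. In the hexosamine pathway, which makes the sugar donor for protein glycosylation, Gfpt2 and Uap1 were higher at an unadjusted p below 0.05 among 5 genes (40%), with log2 fold changes of 0.54 and 0.43 (edgeR adjusted p = 0.315 and 0.361). The more widely studied first enzyme Gfpt1 was at 0.013. For all 3 of G6pdx, Gfpt2 and Uap1 the aged samples lay above the young samples, where 9.62% of all tested genes did so. These 3 were named for their unadjusted p in the same data, so their separation adds no support.

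Neither the entry of pyruvate into mitochondria, with 13 genes, nor the serine branch, with 5, held a gene with an unadjusted p below 0.05. Of all tested genes, 8.32% were higher and 4.32% lower at that p, so lists this short may hold none. In the entry of pyruvate the smallest p was that of Pdk3, a kinase that inhibits pyruvate dehydrogenase, with a log2 fold change of 0.29 (edgeR adjusted p = 0.567). In the serine branch it was that of Psph, the last enzyme of serine synthesis, with -0.36 (edgeR adjusted p = 0.537). The pyruvate dehydrogenase subunits Pdha1 and Pdhb had log2 fold changes of -0.0051 and -0.053.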
